A study of Drosophila melanogaster with 24 samples.

Results

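The digestive proteases, lysozymes and related gut genes described here were 39 of the 15682 genes in the deposited count files. They were picked out by symbol, with earlier results of these data known. The 16 Jonah genes (Jon followed by a digit) encode chymotrypsin-like serine proteases, and the 11 genes with symbols ending in Try encode trypsins or trypsin-like proteases. Further members were 7 lysozyme genes (LysB, LysC, LysD, LysE, LysP, LysS and LysX), the serine protease genes Ser6, Ser8 and Ser12, mag (a secreted gut lipase) and mex1 (a gene first known for its expression in the midgut).

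The libraries came from thoraces of male Drosophila melanogaster at 10 days of age, which are mostly skeletal muscle. Every thorax group carried 1 RNAi transgene under Mhc, a driver active in skeletal muscle, so the controls also carried the driver and a hairpin. ProsB1 RNAi and ProsB5 RNAi target catalytic subunits of the proteasome. Ter94 RNAi targets the ATPase known in mammals as VCP or p97, and CG6272 RNAi targets a bZIP transcription factor. The controls were white RNAi, against an eye colour gene, and GFP RNAi, against a sequence that flies lack. Each group held 3 libraries, named here by replicate number, and the labels call them biological replicates. Heads of 10-day-old males, with Amyrel overexpressed in muscle or with the driver alone, gave 6 more libraries, which are used only for levels.

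The midgut of the adult fly starts in the thorax, and a dissected thorax keeps the proventriculus, the salivary glands and the anterior midgut unless they are removed. Enterocytes along the midgut secrete trypsins and chymotrypsin-like proteases that cut dietary protein. Lysozymes cleave the peptidoglycan of bacteria eaten with the food, and in the fly LysB to LysE are known from the midgut and LysP from the salivary gland. In bulk RNA, fewer gut cells in a thorax and less RNA per gut cell cannot be told apart.

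Depth was 28870166 to 79158181 reads in genes per thorax library. The targeted genes were lower in their own knockdowns: Prosbeta1 had 40.3 to 45.7 CPM (counts scaled to 1000000 reads in genes) in ProsB1 RNAi, against 68.9 to 84.4 in the controls, and Prosbeta5 had 64.0 to 72.8 CPM in ProsB5 RNAi, against 128 to 149.7 in the controls. TER94 had 259.8 to 265 CPM in Ter94 RNAi, against 305 to 378 in the controls, and CG6272 had 13.5 to 14.5 CPM in CG6272 RNAi, against 24.9 to 27.7. The w gene, the target of white RNAi, had 1.79, 1.57 and 1.60 CPM there, against 1.49, 1.50 and 1.42 CPM in GFP RNAi, so it was not lower, and it had 78.4, 89.1 and 89.7 CPM in Ter94 RNAi. GFP RNAi replicate 1 carried gut transcripts that the other 5 controls nearly lacked, Ter94 RNAi replicate 1 had far less of the abundant members than replicates 2 and 3, and Ter94 RNAi replicates 2 and 3 were closer to sampling noise than any other pair, with a chi-square of 1.77 per degree of freedom over genes against 12.1 to 289 in the other thorax pairs. The labels call these libraries biological replicates, and whether they came from separate flies was not tested. If they were 1 sample, each SE and p-value of Ter94 RNAi would rest on 2 samples. Markers of other organs also varied between libraries. The summed level of 8 male accessory gland genes was 0.312, 0.144 and 0.333 CPM in ProsB1 RNAi, 213, 0.308 and 0.262 in ProsB5 RNAi, 0.727, 1.74 and 1.91 in Ter94 RNAi, 0.304, 0.230 and 0.354 in CG6272 RNAi, 14.1, 79.6 and 0.283 in white RNAi and 118, 1.15 and 0.388 in GFP RNAi. For 10 photoreceptor genes it was 75.6 to 169.9 CPM in the knockdowns and 117 to 960.4 CPM in the controls. The part that these differences play in the results was not tested. The CG6272 RNAi libraries are titled differently from the remaining thorax libraries, so the knockdown and a possible batch cannot be told apart. In the comparisons of the 39 members, values without a library that stood apart are given where they move a result.

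The members fell into 3 classes by their level in the 6 control libraries. Abundant members had a mean of at least 10 CPM and numbered 19, from 13.3 CPM (deltaTry) to 2586 CPM (alphaTry). Control-absent members had a median of at most 3 reads and numbered 11. The other 9 were low. The control-absent class held 7 Jonah genes, 2 trypsin genes, Ser8 and Ser12, the low class 3 Jonah genes, 3 trypsin genes, 2 lysozyme genes and mag, and the abundant class 6 Jonah genes, 6 trypsin genes, 5 lysozyme genes, Ser6 and mex1. Just inside the control-absent limit lay Jon25Biii and Ser8, with a median of 3 reads each, and just outside it mag, Jon99Fii, thetaTry and lambdaTry, with 4.5, 5.5, 6 and 8.5 reads. The classes use control values, so a higher level of control-absent members in a knockdown is in part fixed by the choice. Members this low in controls pass the filter on low counts through the knockdown libraries in which they are high. Their calls, fold changes and adjusted p-values against controls below, and the counts of these calls, are therefore descriptions.

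Per kilobase of exon, alphaTry stood first in the controls at 3007 CPM per kb, followed by betaTry at 1739.5 and Jon74E at 1030.3. alphaTry also stood first per kilobase in ProsB1, ProsB5 and CG6272 RNAi. In Ter94 RNAi LysP took that place at 596 CPM per kb, against 509 for alphaTry. Jon25Biii was 8th of the 39 members per kilobase in ProsB1 RNAi and 23rd in the controls.

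Neighbouring genes fell in different classes. On chromosome arm 3L, Jon65Aiv and Jon65Aiii were abundant, and the next genes Jon65Aii and Jon65Ai were control-absent. The 11 trypsin genes lie on arm 2R, 9 of them in the order lambdaTry, kappaTry, zetaTry, etaTry, thetaTry, alphaTry, epsilonTry, betaTry and gammaTry with no other annotated gene between them, and deltaTry and iotaTry on either side of CG13202. Abundant kappaTry there stood between low lambdaTry and control-absent zetaTry. On arm 2L, Jon25Bi and Jon25Bii were low beside control-absent Jon25Biii. Gene order was read from an annotation of a later build than the one the counts were made on, and no coordinates are given.

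**Figure D1:**
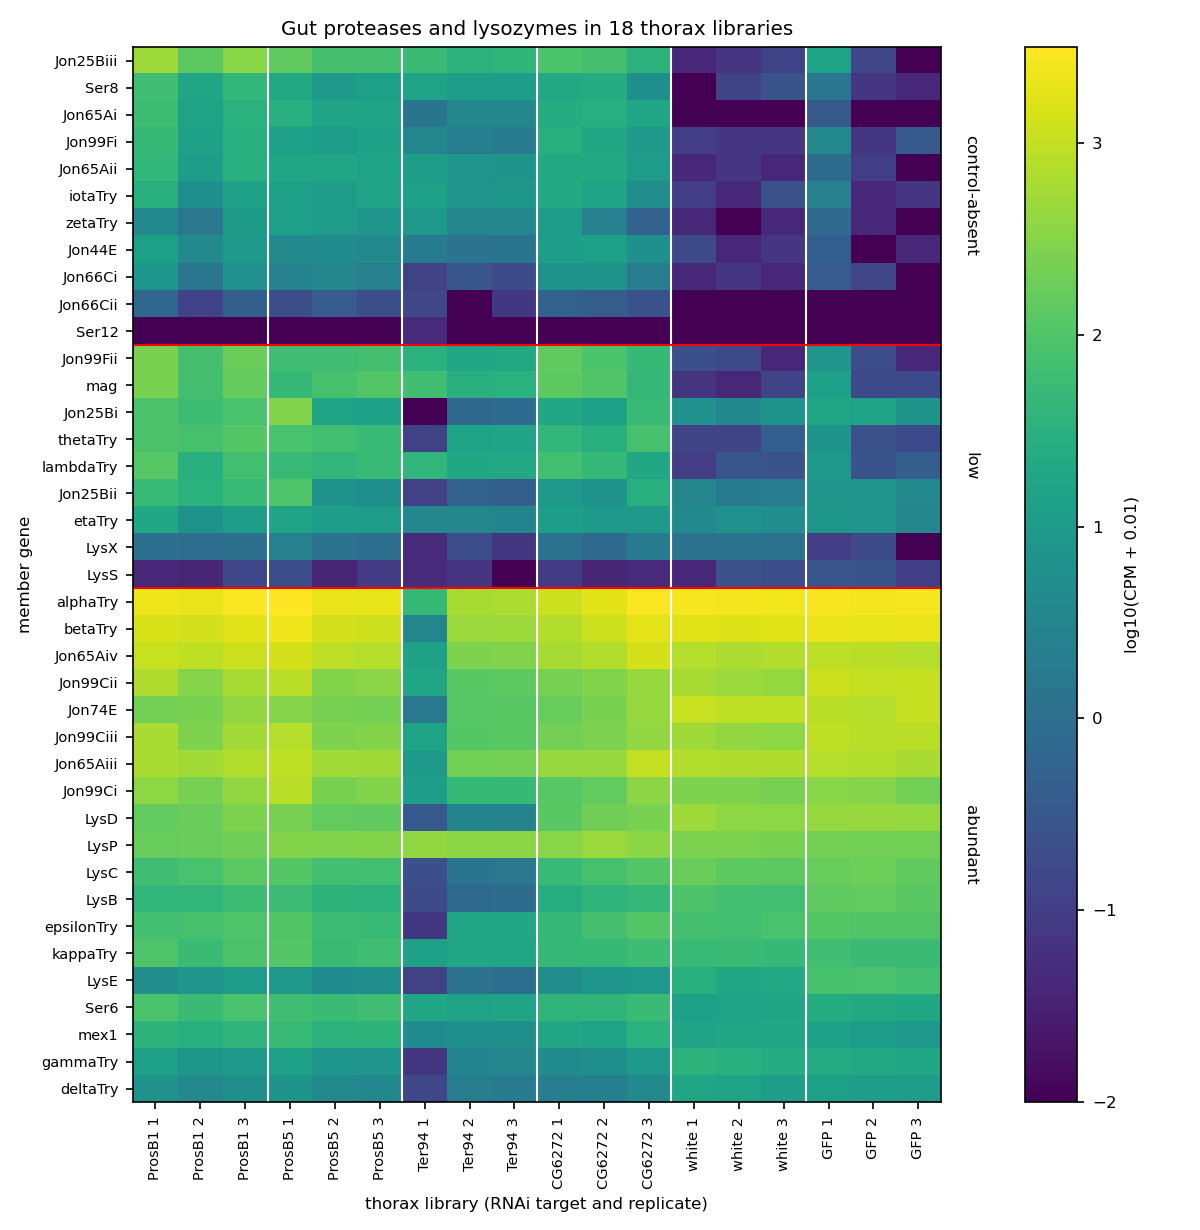
Level of each of the 39 members in each of the 18 thorax libraries, as log10 of CPM plus 0.01, with groups separated by white lines and the 3 classes by red lines. Apart from Jon66Cii, Ser12 and, in Ter94 RNAi, Jon66Ci, control-absent members are dark in white RNAi and in GFP RNAi replicates 2 and 3 and lighter in all 12 knockdown libraries, while most abundant members are darkest in Ter94 RNAi replicate 1.

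Differences were tested with edgeR's quasi-likelihood test, with Benjamini-Hochberg adjustment over all genes, and a gene was called at an adjusted p under 0.05. Fold changes are log2 values with their standard error (SE). Controls are the mean of the white and GFP RNAi groups, and all 4 comparisons with controls share these 6 libraries. In ProsB1 RNAi 20 members were higher and 7 lower than in controls, of 37 tested, where 21.3% of all genes were called (11.6% higher and 9.73% lower). In ProsB5 RNAi 21 were higher and 6 lower, with 31.0% of all genes called (17.3% higher and 13.8% lower). In Ter94 RNAi 14 were higher and 22 lower, of 37 tested, with 58.1% of all genes called (29.7% higher and 28.4% lower). In CG6272 RNAi 19 were higher and 9 lower, of 36 tested, with 22.8% of all genes called (13.3% higher and 9.53% lower). Libraries did not overlap the controls in 19 higher and 8 lower members in ProsB1 RNAi (17.6 and 5.15% of all genes), 18 and 7 in ProsB5 RNAi (19.4 and 7.13%), 11 and 19 in Ter94 RNAi (45.5 and 12.4%), and 15 and 7 in CG6272 RNAi (18 and 10.2%). Ser12 and LysS were too low to test, and Jon66Cii also in CG6272 RNAi. Of the 19 abundant members 2 were higher and 7 lower in ProsB1 RNAi, 3 and 6 in ProsB5 RNAi, 1 and 18 in Ter94 RNAi, and 2 and 9 in CG6272 RNAi. The 8 tested low members were all higher in ProsB1, ProsB5 and CG6272 RNAi, and 4 were higher and 4 lower in Ter94 RNAi. With Ter94 RNAi replicates 2 and 3 summed as 1 library, 14 members were higher and 19 lower in Ter94 RNAi. Without GFP RNAi replicate 1 the called members numbered 24, 27, 35 and 29 in ProsB1, ProsB5, Ter94 and CG6272 RNAi, and without Ter94 RNAi replicate 1 they numbered 30 in Ter94 RNAi.

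**Figure D2:**
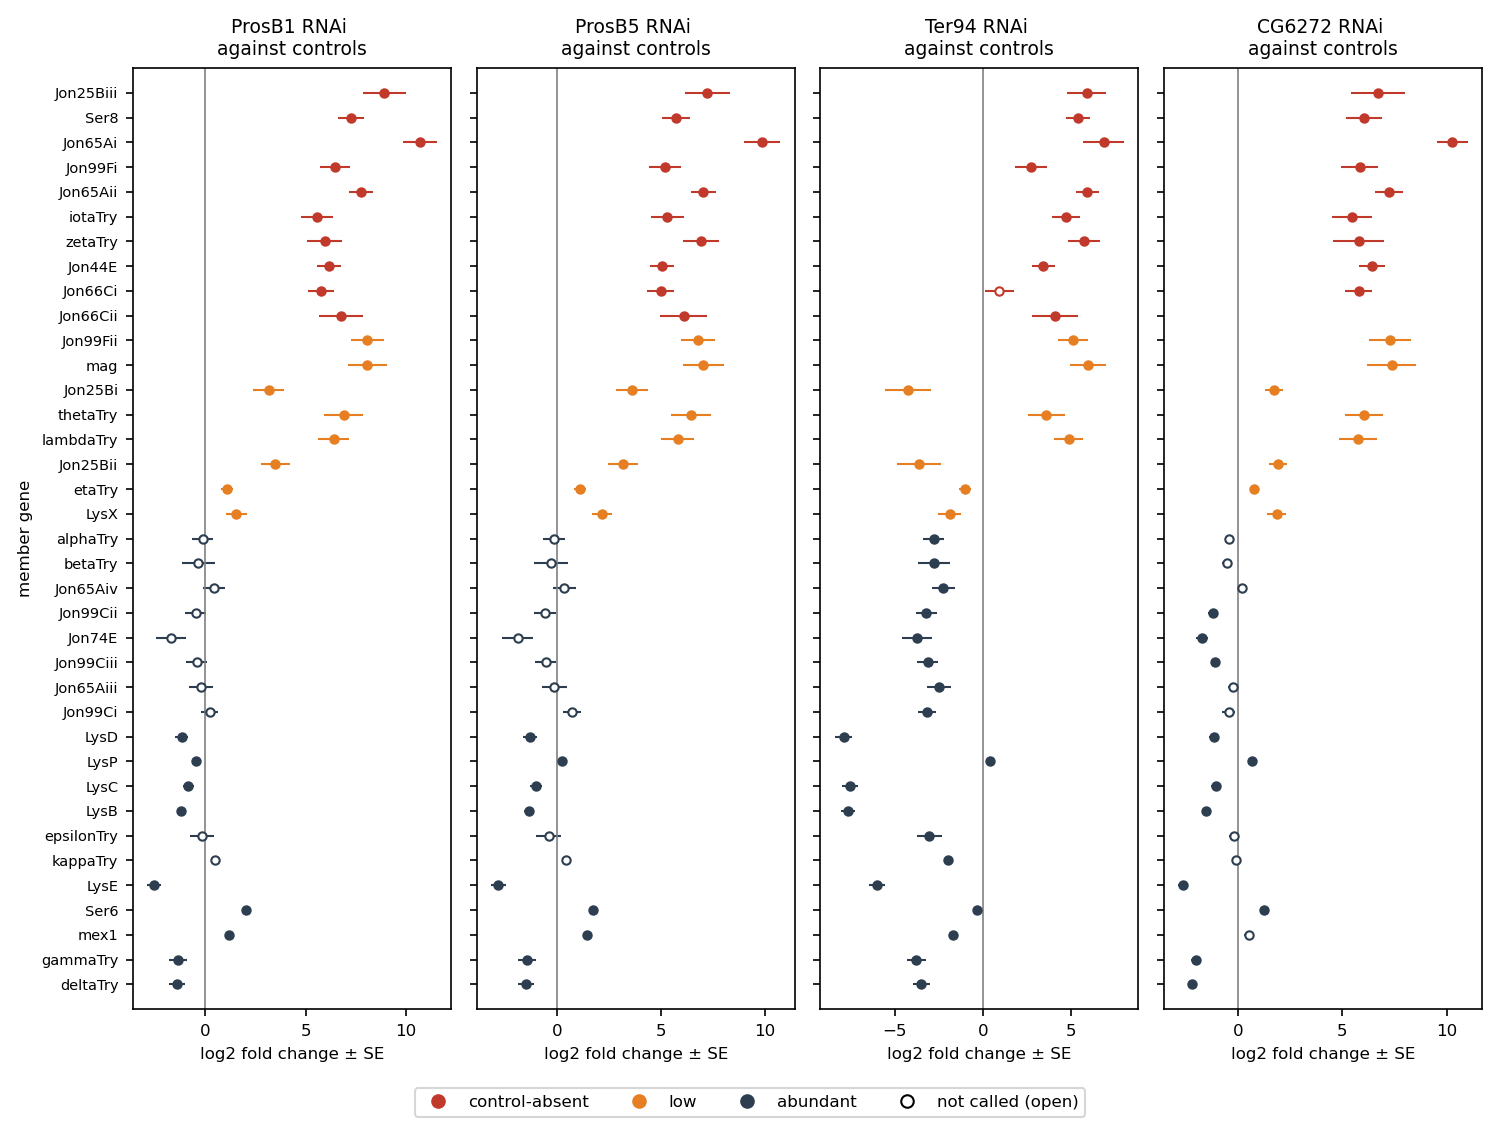
Log2 fold change against controls with its SE for the tested members in the 4 knockdowns, coloured by class, with open points for members not called. In ProsB1, ProsB5 and CG6272 RNAi the control-absent and low members lie right of 0 and the abundant members lie on both sides of it, whereas in Ter94 RNAi 18 of 19 abundant members lie left of 0 and LysP right of it.

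The 2 major trypsin genes, whose products cut dietary protein after basic residues, were called lower in Ter94 RNAi and in no other knockdown. alphaTry had 2309, 2119 and 2973 CPM in ProsB1 RNAi, 3233, 2087 and 1955 in ProsB5 RNAi, 47.7, 611 and 655 in Ter94 RNAi and 1203, 1810.0 and 2955 in CG6272 RNAi, against 2689, 2481 and 2458 in white RNAi and 2747, 2536 and 2605 in GFP RNAi. All 3 Ter94 RNAi libraries lay below all 6 controls, and replicate 1 lay far below replicates 2 and 3. Its log2 fold change was -2.80 ± 0.60 in Ter94 RNAi (adjusted p 0.00147), and -0.14 ± 0.52, -0.15 ± 0.52 and -0.42 ± 0.23, none of them called, in ProsB1, ProsB5 and CG6272 RNAi. betaTry had 1463, 1308 and 1819 CPM in ProsB1 RNAi, 2253, 1298 and 1191 in ProsB5 RNAi, 3.29, 475 and 489.8 in Ter94 RNAi and 748, 1219.7 and 1916 in CG6272 RNAi, against 1748, 1585 and 1672 in white RNAi and 2134, 1970.0 and 2069 in GFP RNAi. betaTry was lower in Ter94 RNAi, at -2.76 ± 0.91 (adjusted p 0.02), and without Ter94 RNAi replicate 1 the value was -2.16 (adjusted p 1.7e-05).

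Of the other abundant trypsin genes, epsilonTry had 73.1, 78.8 and 94.4 CPM in ProsB1 RNAi, 100.002, 58.7 and 50.002 in ProsB5 RNAi, 0.0692, 17.5 and 20.2 in Ter94 RNAi and 45.2, 75.2 and 115 in CG6272 RNAi, against 75.9, 67.9 and 83.2 in white RNAi and 110.1, 99.7 and 101 in GFP RNAi. kappaTry had 97.5, 56.01 and 91.2 CPM in ProsB1 RNAi, 106, 57.3 and 66.05 in ProsB5 RNAi, 13.7, 18.4 and 17.6 in Ter94 RNAi and 46.9, 49.1 and 63.4 in CG6272 RNAi, against 53.6, 55.3 and 47.2 in white RNAi and 63.7, 55.1 and 55.03 in GFP RNAi. Both fell in Ter94 RNAi, with log2 fold changes of -3.04 ± 0.70 for epsilonTry (adjusted p 0.00238) and -1.96 ± 0.23 for kappaTry (adjusted p 1.22e-05), and neither was called in the other knockdowns. Without Ter94 RNAi replicate 1 the value of epsilonTry was -2.45 (adjusted p 1.03e-05).

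gammaTry and deltaTry, near-identical trypsin genes whose reads are hard to assign to one copy, fell in every knockdown. gammaTry had 13.5, 8.17 and 9.59 CPM in ProsB1 RNAi, 14.04, 7.86 and 7.44 in ProsB5 RNAi, 0.0692, 2.99 and 3.43 in Ter94 RNAi and 4.40, 5.55 and 9.07 in CG6272 RNAi, against 35.1, 28.01 and 25.5 in white RNAi and 23.96, 22.1 and 19.8 in GFP RNAi. deltaTry had 6.54, 3.88 and 5.35 CPM in ProsB1 RNAi, 6.92, 4.14 and 3.69 in ProsB5 RNAi, 0.138, 2.03 and 1.91 in Ter94 RNAi and 2.27, 2.39 and 4.19 in CG6272 RNAi, against 16.7, 15.1 and 11.9 in white RNAi and 13.2, 12.001 and 10.8 in GFP RNAi. No knockdown library reached the lowest control in either gene. On the log2 scale the fold changes of gammaTry were -1.36 ± 0.44, -1.43 ± 0.44, -3.78 ± 0.54 and -2.04 ± 0.22 in ProsB1, ProsB5, Ter94 and CG6272 RNAi (adjusted p 0.044, 0.0265, 6.29e-05 and 0.000816). For deltaTry, which overlaps CG13202, they were -1.40 ± 0.40, -1.48 ± 0.40, -3.51 ± 0.48 and -2.19 ± 0.22 (adjusted p 0.0259, 0.0142, 4.56e-05 and 0.000511). In ProsB1 RNAi the call of gammaTry was lost under 15 of 20 alternative settings, up to an adjusted p of 0.163, and that of deltaTry under 7 of 20. With the replicate number as a block gammaTry had -1.37 (adjusted p 0.0524) in ProsB1 RNAi.

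The trypsin genes that were low or absent in controls went the other way in the proteasome and CG6272 knockdowns. thetaTry had 91.8, 78.8 and 112 CPM in ProsB1 RNAi, 85.3, 68.6 and 50.8 in ProsB5 RNAi, 0.104, 15.5 and 16.4 in Ter94 RNAi and 44.1, 28.2 and 81.2 in CG6272 RNAi, against 0.122, 0.125 and 0.440 in white RNAi and 6.97, 0.223 and 0.161 in GFP RNAi. Ter94 RNAi replicate 1 was the single knockdown library at the level of the low controls, and GFP RNAi replicate 1 the single control above 1 CPM. lambdaTry had 117, 29.5 and 67.96 CPM in ProsB1 RNAi, 51.3, 41.1 and 50.3 in ProsB5 RNAi, 42.7, 20.04 and 20.5 in Ter94 RNAi and 68.5, 46.2 and 19.2 in CG6272 RNAi, against 0.0912, 0.282 and 0.252 in white RNAi and 8.71, 0.255 and 0.420 in GFP RNAi. All 12 knockdown libraries of lambdaTry lay above all 6 controls. Fold changes (log2) of thetaTry were 6.89 ± 0.97, 6.44 ± 0.96, 3.59 ± 1.05 and 6.04 ± 0.92 in ProsB1, ProsB5, Ter94 and CG6272 RNAi (adjusted p 0.000258, 0.000331, 0.0104 and 0.00343). Those of lambdaTry were 6.39 ± 0.79, 5.81 ± 0.79, 4.86 ± 0.80 and 5.75 ± 0.93 (adjusted p 0.000101, 0.000165, 0.000218 and 0.00453). Without GFP RNAi replicate 1 the values in the same order were 8.71, 8.25, 5.43 and 7.86 for thetaTry and 7.99, 7.39, 6.47 and 7.34 for lambdaTry, and without Ter94 RNAi replicate 1 that of thetaTry in Ter94 RNAi was 4.18 (adjusted p 0.000911). Against GFP RNAi alone the rise of thetaTry in Ter94 RNAi was not called (adjusted p 0.157).

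iotaTry and zetaTry, both control-absent, also rose in all 4 knockdowns. iotaTry had 28.5, 5.49 and 13.9 CPM in ProsB1 RNAi, 14.3, 10.97 and 14.8 in ProsB5 RNAi, 14.2, 7.24 and 8.24 in Ter94 RNAi and 21.6, 16.4 and 5.08 in CG6272 RNAi, against 0.0912, 0.0314 and 0.220 in white RNAi and 2.53, 0.0319 and 0.0646 in GFP RNAi. zetaTry had 4.08, 1.61 and 10.1 CPM in ProsB1 RNAi, 12.8, 10.8 and 7.30 in ProsB5 RNAi, 8.62, 3.15 and 3.53 in Ter94 RNAi and 10.6, 2.45 and 0.493 in CG6272 RNAi, against 0.0304, 0 and 0.0314 in white RNAi and 0.761, 0.0319 and 0 in GFP RNAi. Both were lowest in CG6272 RNAi replicate 3 among the 12 knockdown libraries. The log2 fold changes of iotaTry were 5.56 ± 0.79, 5.31 ± 0.79, 4.71 ± 0.81 and 5.45 ± 0.95 in ProsB1, ProsB5, Ter94 and CG6272 RNAi (adjusted p 0.000277, 0.000316, 0.000284 and 0.00596). Those of zetaTry were 5.95 ± 0.88, 6.92 ± 0.85, 5.74 ± 0.88 and 5.78 ± 1.21 (adjusted p 0.000363, 8.32e-05, 0.000126 and 0.0132). Leaving out GFP RNAi replicate 1 gave 7.61, 7.34, 6.76 and 7.49 for iotaTry and 7.85, 8.80, 7.64 and 7.69 for zetaTry. Leaving out single knockdown libraries gave zetaTry 5.05 (adjusted p 0.00252) without ProsB1 RNAi replicate 3, 5.14 (adjusted p 0.000708) without Ter94 RNAi replicate 1 and 4.19 (adjusted p 0.0561), no longer called, without CG6272 RNAi replicate 1. iotaTry had 4.84 (adjusted p 0.00225) in ProsB1 RNAi without replicate 1.

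etaTry stayed within a narrower range. It had 18.7, 6.44 and 12.2 CPM in ProsB1 RNAi, 16.5, 11.4 and 10.4 in ProsB5 RNAi, 3.57, 3.28 and 3.08 in Ter94 RNAi and 11.3, 9.29 and 9.31 in CG6272 RNAi, against 4.26, 5.99 and 5.0 in white RNAi and 8.34, 7.28 and 3.55 in GFP RNAi. It rose in ProsB1, ProsB5 and CG6272 RNAi (1.06 ± 0.30, 1.11 ± 0.30 and 0.77 ± 0.22 on the log2 scale, adjusted p 0.0238, 0.0128 and 0.0396) and was lower in Ter94 RNAi (-1.01 ± 0.34, adjusted p 0.0208). The calls of etaTry were lost under 6, 4 and 6 of 20 alternative settings in ProsB1, ProsB5 and Ter94 RNAi and under 12 of 19 in CG6272 RNAi. Its adjusted p was 0.200 without ProsB1 RNAi replicate 1 in ProsB1 RNAi. Without the libraries over 5 CPM of the accessory gland gene Acp36DE (ProsB5 RNAi replicate 1, white RNAi replicates 1 and 2 and GFP RNAi replicate 1) it was 0.141 in ProsB5 RNAi and 0.0990 in Ter94 RNAi. In CG6272 RNAi it was 0.109 without CG6272 RNAi replicate 1 and 1 when a change of at least 1 on the log2 scale was required.

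The Jonah proteases also divided into genes that were abundant and genes that were absent in controls. Jon25Biii had the highest level of the control-absent members in every knockdown. It had 497, 130.3 and 333 CPM in ProsB1 RNAi, 146, 74.8 and 77.1 in ProsB5 RNAi, 57.5, 33.8 and 40.2 in Ter94 RNAi and 87.2, 76.2 and 34.8 in CG6272 RNAi, against 0.0304, 0.0627 and 0.126 in white RNAi and 15.5, 0.128 and 0 in GFP RNAi. In reads, these controls held 1, 2 and 4 in white RNAi and 508, 4 and 0 in GFP RNAi. Every knockdown library lay above GFP RNAi replicate 1, the single control with more than 4 reads. The log2 fold changes were 8.92 ± 1.06, 7.24 ± 1.06, 5.89 ± 1.10 and 6.69 ± 1.28 in ProsB1, ProsB5, Ter94 and CG6272 RNAi (adjusted p 7.81e-05, 0.000288, 0.000558 and 0.00928). Without GFP RNAi replicate 1 the 4 values were 12.05, 10.36, 9.03 and 9.82. Against GFP RNAi alone the rise in CG6272 RNAi was not called (adjusted p 0.0790).

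Jon65Ai and Jon65Aii, neighbours on arm 3L, both rose in all 4 knockdowns. Jon65Ai had 61.3, 15.1 and 32.5 CPM in ProsB1 RNAi, 28.5, 16.4 and 16.3 in ProsB5 RNAi, 1.35, 3.54 and 3.57 in Ter94 RNAi and 25.9, 28.1 and 16.9 in CG6272 RNAi, against 0 reads in 5 control libraries and 11 reads (0.335 CPM) in GFP RNAi replicate 1. Jon65Aii had 43.6, 11.4 and 27.9 CPM in ProsB1 RNAi, 17.5, 16.8 and 15.8 in ProsB5 RNAi, 11.5, 7.53 and 7.10 in Ter94 RNAi and 21.95, 22.1 and 10.6 in CG6272 RNAi, against 0.0304, 0.0627 and 0.0314 in white RNAi and 0.853, 0.0958 and 0 in GFP RNAi. Ter94 RNAi replicate 1 was below replicates 2 and 3 in Jon65Ai and above them in Jon65Aii. On the log2 scale the fold changes of Jon65Aii were 7.76 ± 0.60, 7.05 ± 0.61, 5.94 ± 0.64 and 7.22 ± 0.67 in ProsB1, ProsB5, Ter94 and CG6272 RNAi (adjusted p 5.01e-06, 8.77e-06, 6.63e-06 and 0.000394). For Jon65Ai they were 10.70 ± 0.84, 9.88 ± 0.87, 6.85 ± 1.15 and 10.27 ± 0.72 (adjusted p 1.28e-05, 2.29e-05, 0.000455 and 0.000411), and they rest on 1 control library with reads. With GFP RNAi replicate 1 left out the values of Jon65Aii were 9.09, 8.36, 7.27 and 8.54, and Jon65Ai then had 0 reads in all controls that were left.

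Jon99Fi and Jon99Fii are another neighbouring pair. Jon99Fi had 48.3, 13.7 and 29.8 CPM in ProsB1 RNAi, 12.7, 11.7 and 13.8 in ProsB5 RNAi, 3.57, 2.22 and 1.94 in Ter94 RNAi and 28.3, 19.5 and 9.46 in CG6272 RNAi, against 0.0912, 0.0627 and 0.0629 in white RNAi and 3.90, 0.0638 and 0.323 in GFP RNAi. Jon99Fii had 253, 73.7 and 179.8 CPM in ProsB1 RNAi, 64.8, 65.7 and 75.8 in ProsB5 RNAi, 33.2, 18.3 and 21.7 in Ter94 RNAi and 142, 88.6 and 49.5 in CG6272 RNAi, against 0.213, 0.157 and 0.0314 in white RNAi and 7.37, 0.192 and 0.0323 in GFP RNAi. Jon99Fi in Ter94 RNAi was the single case of the pair in which knockdown and control libraries overlapped, through GFP RNAi replicate 1. Fold changes (log2) of Jon99Fi were 6.46 ± 0.74, 5.20 ± 0.76, 2.73 ± 0.91 and 5.83 ± 0.89 in ProsB1, ProsB5, Ter94 and CG6272 RNAi (adjusted p 5.58e-05, 0.00027, 0.0207 and 0.00348). Those of Jon99Fii were 8.08 ± 0.82, 6.79 ± 0.82, 5.13 ± 0.85 and 7.27 ± 1.02 (adjusted p 2.49e-05, 7.17e-05, 0.000223 and 0.00239). When GFP RNAi replicate 1 was left out the values were 7.89, 6.62, 4.17 and 7.25 for Jon99Fi and 10.31, 9.01, 7.37 and 9.49 for Jon99Fii. In Ter94 RNAi the call of Jon99Fi was lost against GFP RNAi alone (adjusted p 0.556) and without Ter94 RNAi replicate 1, where it had 2.43 (adjusted p 0.072).

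Jon44E and Jon66Ci were less abundant. Jon44E, which overlaps CG8586, had 13.2, 3.83 and 9.15 CPM in ProsB1 RNAi, 3.86, 4.39 and 3.92 in ProsB5 RNAi, 1.90, 1.25 and 1.28 in Ter94 RNAi and 11.4, 13.5 and 5.76 in CG6272 RNAi, against 0.152, 0.0314 and 0.0629 in white RNAi and 0.426, 0 and 0.0323 in GFP RNAi. Its log2 fold changes were 6.15 ± 0.59, 5.05 ± 0.60, 3.43 ± 0.63 and 6.42 ± 0.64, all called. Jon66Ci had 7.67, 1.41 and 5.91 CPM in ProsB1 RNAi, 2.77, 3.44 and 2.53 in ProsB5 RNAi, 0.104, 0.289 and 0.173 in Ter94 RNAi and 6.23, 6.24 and 2.03 in CG6272 RNAi, against 0.0304, 0.0627 and 0.0314 in white RNAi and 0.365, 0.128 and 0 in GFP RNAi. It rose in ProsB1, ProsB5 and CG6272 RNAi, at 5.77 ± 0.64, 5.0 ± 0.65 and 5.77 ± 0.66, and was the single tested control-absent member not called in Ter94 RNAi (0.92 ± 0.83, adjusted p 0.36). Without GFP RNAi replicate 1 the values were 7.66, 6.54, 4.95 and 7.94 for Jon44E, and in ProsB1, ProsB5 and CG6272 RNAi those of Jon66Ci were 6.43, 5.64 and 6.43. Jon66Cii had 22, 4 and 16 reads in ProsB1 RNAi, 7, 13 and 7 in ProsB5 RNAi, 4, 0 and 2 in Ter94 RNAi and 35, 14 and 18 in CG6272 RNAi, against 0 reads in all 6 controls. Set against a floor of 3 reads over all reads in genes of the 6 controls, 0.0157 CPM, its pooled level was at least 26.1-fold higher in ProsB1 RNAi, 16.5-fold in ProsB5 RNAi, 4.32-fold in Ter94 RNAi and 23.4-fold in CG6272 RNAi, bounds that cover counting error only. Ser12 had 1 read in Ter94 RNAi replicate 1 and 0 reads in the other 17 thorax libraries.

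Jon25Bi and Jon25Bii, near-identical copies, were low in controls and differed widely between libraries of one group. Jon25Bi had 89.8, 62.5 and 83.1 CPM in ProsB1 RNAi, 289, 15.8 and 13.8 in ProsB5 RNAi, 0, 0.675 and 0.831 in Ter94 RNAi and 18.4, 13.4 and 54.4 in CG6272 RNAi, against 5.93, 3.64 and 6.48 in white RNAi and 17.1, 15.5 and 7.07 in GFP RNAi. Jon25Bii had 52.1, 32.9 and 49.8 CPM in ProsB1 RNAi, 96.3, 6.41 and 5.35 in ProsB5 RNAi, 0.104, 0.515 and 0.450 in Ter94 RNAi and 8.91, 6.76 and 28.9 in CG6272 RNAi, against 3.16, 1.82 and 2.14 in white RNAi and 7.28, 7.44 and 3.94 in GFP RNAi. In ProsB1 RNAi all 3 libraries lay above the controls in both genes, in Ter94 RNAi all 3 lay below them, and in ProsB5 and CG6272 RNAi they overlapped. The log2 fold changes of Jon25Bi were 3.16 ± 0.77, 3.62 ± 0.77, -4.27 ± 1.30 and 1.73 ± 0.43 in ProsB1, ProsB5, Ter94 and CG6272 RNAi (adjusted p 0.0109, 0.00349, 0.0131 and 0.024). Jon25Bii had 3.48 ± 0.72, 3.19 ± 0.72, -3.63 ± 1.27 and 1.91 ± 0.42 (adjusted p 0.00403, 0.00497, 0.0258 and 0.0166). With the 4 libraries over 5 CPM of Acp36DE left out, the value of Jon25Bi in ProsB5 RNAi was 0.72 (adjusted p 0.288). ProsB5 RNAi replicate 1 alone decided both calls in that group, since without it Jon25Bi had 0.74 (adjusted p 0.156) and Jon25Bii 0.54 (adjusted p 0.202). Without CG6272 RNAi replicate 3 the values in CG6272 RNAi were 0.90 (adjusted p 0.0657) for Jon25Bi and 1.01 (adjusted p 0.0287) for Jon25Bii. Without Ter94 RNAi replicate 1 those in Ter94 RNAi were -3.69 (adjusted p 0.0534) for Jon25Bi and -3.20 (adjusted p 0.09) for Jon25Bii.

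Of the abundant Jonah genes, Jon65Aiii and Jon65Aiv resembled alphaTry in their calls. Unlike alphaTry, Jon65Aiv lay above every control in all ProsB1 RNAi libraries. Jon65Aiii had 619, 540.2 and 753 CPM in ProsB1 RNAi, 961, 558 and 512 in ProsB5 RNAi, 8.79, 218 and 226 in Ter94 RNAi and 441, 444 and 1002 in CG6272 RNAi, against 736, 691 and 708 in white RNAi and 756, 747 and 642 in GFP RNAi. Jon65Aiv had 1102, 919.5 and 1234 CPM in ProsB1 RNAi, 1395, 907 and 765 in ProsB5 RNAi, 14.4, 271 and 288 in Ter94 RNAi and 614, 729 and 1368 in CG6272 RNAi, against 762, 658 and 729.9 in white RNAi and 894, 842 and 754 in GFP RNAi. Both were called lower in Ter94 RNAi alone, at -2.48 ± 0.68 for Jon65Aiii (adjusted p 0.00739) and -2.25 ± 0.63 for Jon65Aiv (adjusted p 0.00871). In the other knockdowns their log2 fold changes ran from -0.23 ± 0.60 to 0.43 ± 0.56 and were not called.

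The Jon99C genes lie side by side on arm 3R, and Jon99Cii and Jon99Ciii are near-identical. Jon99Ci had 368, 236 and 402 CPM in ProsB1 RNAi, 873, 242 and 296 in ProsB5 RNAi, 11.9, 47.95 and 48.4 in Ter94 RNAi and 117, 152 and 351 in CG6272 RNAi, against 275, 267 and 241 in white RNAi and 340.2, 319 and 216 in GFP RNAi. Jon99Cii had 701, 315 and 613 CPM in ProsB1 RNAi, 865, 297 and 349 in ProsB5 RNAi, 17.2, 125 and 134 in Ter94 RNAi and 235, 283 and 445 in CG6272 RNAi, against 614, 472 and 429.7 in white RNAi and 1121, 1000.2 and 1029 in GFP RNAi. Jon99Ciii had 637, 270.2 and 536 CPM in ProsB1 RNAi, 757, 267 and 307 in ProsB5 RNAi, 15.8, 109 and 126 in Ter94 RNAi and 221, 255 and 402 in CG6272 RNAi, against 525, 413 and 370.3 in white RNAi and 945, 858 and 870.3 in GFP RNAi. White RNAi lay below GFP RNAi in every library for Jon99Cii and Jon99Ciii, so the controls themselves differed. All 3 genes fell in Ter94 RNAi, with log2 fold changes of -3.17 ± 0.52, -3.22 ± 0.60 and -3.13 ± 0.60 (adjusted p 0.000219, 0.000575 and 0.00067). In CG6272 RNAi Jon99Cii and Jon99Ciii were also lower (-1.22 ± 0.20 and -1.13 ± 0.19, adjusted p 0.00505 and 0.00571), with libraries that overlapped the controls.

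Jon74E, another abundant Jonah gene, had lower libraries in all 4 knockdowns. It had 222, 245 and 410.0 CPM in ProsB1 RNAi, 313, 240.2 and 227 in ProsB5 RNAi, 1.63, 116 and 124 in Ter94 RNAi and 169, 253 and 445 in CG6272 RNAi, against 1092, 928 and 924 in white RNAi and 848, 758 and 1032 in GFP RNAi. All 12 knockdown libraries lay below all 6 controls. The fall was called in Ter94 RNAi (-3.76 ± 0.85, adjusted p 0.00212) and CG6272 RNAi (-1.73 ± 0.28, adjusted p 0.00478). In ProsB1 and ProsB5 RNAi it was -1.74 ± 0.75 and -1.89 ± 0.76 and not called (adjusted p 0.124 and 0.0768) in the fit that shares its spread with the Ter94 RNAi libraries. Fitted without those libraries, an alternative chosen after the values were seen, Jon74E was called in both (adjusted p 0.00036 and 0.000184). Without Ter94 RNAi replicate 1 its value in Ter94 RNAi was -3.17 (adjusted p 2.44e-06).

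The remaining serine protease members were Ser8, control-absent, and Ser6, abundant. Ser8, which overlaps ATP8A, had 64.5, 17.8 and 43.7 CPM in ProsB1 RNAi, 21.5, 8.84 and 13.3 in ProsB5 RNAi, 15.3, 11.4 and 11.6 in Ter94 RNAi and 20.3, 25.6 and 5.37 in CG6272 RNAi, against 0, 0.125 and 0.252 in white RNAi and 1.46, 0.0638 and 0.0323 in GFP RNAi. Its log2 fold changes were 7.26 ± 0.65, 5.75 ± 0.67, 5.38 ± 0.68 and 6.01 ± 0.87 in ProsB1, ProsB5, Ter94 and CG6272 RNAi (adjusted p 1.08e-05, 5.53e-05, 2.53e-05 and 0.00273). Ser8 thus rose in all 4, with no overlap between libraries, and without GFP RNAi replicate 1 the values were 8.94, 7.41, 7.07 and 7.69. Ser6 had 89.6, 56.1 and 84.5 CPM in ProsB1 RNAi, 65.7, 57.2 and 63.8 in ProsB5 RNAi, 17.5, 15.9 and 16.1 in Ter94 RNAi and 38.4, 39.5 and 55.3 in CG6272 RNAi, against 12.6, 15.3 and 15.97 in white RNAi and 25.2, 21.7 and 19.9 in GFP RNAi. Ser6 and mex1 were the abundant members that rose most in the proteasome knockdowns. For Ser6 the log2 fold changes were 2.02 ± 0.13, 1.73 ± 0.13 and 1.26 ± 0.13 in ProsB1, ProsB5 and CG6272 RNAi (adjusted p 1.54e-06, 2.94e-06 and 0.000578). In Ter94 RNAi it was -0.36 ± 0.14 (adjusted p 0.0418), a call lost under 12 of 20 alternative settings.

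The midgut lysozymes fell in every knockdown, and in Ter94 RNAi they were nearly gone. LysD, the most abundant of them in reads, had 148, 172 and 267 CPM in ProsB1 RNAi, 237, 152 and 143 in ProsB5 RNAi, 0.312, 2.96 and 2.84 in Ter94 RNAi and 123, 203 and 246 in CG6272 RNAi, against 500.2, 362 and 361 in white RNAi and 436, 450.4 and 425 in GFP RNAi. LysB had 40.7, 41.5 and 61.1 CPM in ProsB1 RNAi, 59.5, 36.1 and 33.98 in ProsB5 RNAi, 0.173, 0.740 and 0.866 in Ter94 RNAi and 26.3, 37.3 and 46.05 in CG6272 RNAi, against 91.9, 70.4 and 70.5 in white RNAi and 144, 152 and 124 in GFP RNAi. In both genes every knockdown library lay below every control library. LysC had 65.4, 83.4 and 128 CPM in ProsB1 RNAi, 110.4, 71.3 and 66.9 in ProsB5 RNAi, 0.208, 1.29 and 1.49 in Ter94 RNAi and 49.7, 77.5 and 108 in CG6272 RNAi, against 178, 139 and 130.0 in white RNAi and 168, 195 and 146 in GFP RNAi. LysE had 5.27, 7.34 and 10.6 CPM in ProsB1 RNAi, 9.28, 4.73 and 5.12 in ProsB5 RNAi, 0.104, 1.22 and 0.970 in Ter94 RNAi and 5.04, 7.28 and 8.70 in CG6272 RNAi, against 30.4, 19.9 and 21.1 in white RNAi and 81.2, 83.8 and 71.5 in GFP RNAi. Here too no knockdown library reached the controls, and LysE was lower in white RNAi than in GFP RNAi in every library.

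On the log2 scale LysD differed from controls by -1.18 ± 0.33, -1.31 ± 0.33, -7.92 ± 0.51 and -1.18 ± 0.21 in ProsB1, ProsB5, Ter94 and CG6272 RNAi (adjusted p 0.0241, 0.0103, 7.98e-08 and 0.00714). LysB differed by -1.19 ± 0.23, -1.32 ± 0.24, -7.67 ± 0.38 and -1.55 ± 0.18 (adjusted p 0.00292, 0.00112, 1.08e-08 and 0.00104). LysE had the largest falls of the 4 in the proteasome and CG6272 knockdowns, with -2.55 ± 0.34, -2.82 ± 0.35, -6.03 ± 0.46 and -2.67 ± 0.21 (adjusted p 0.000192, 8.54e-05, 3.43e-07 and 0.000195). LysC differed by -0.85 ± 0.28, -0.996 ± 0.28, -7.54 ± 0.45 and -1.06 ± 0.23 (adjusted p 0.0473, 0.0172, 4.46e-08 and 0.015), and its call in ProsB1 RNAi was lost under 15 of 20 alternative settings, the replicate block among them (-0.86, adjusted p 0.0691). Without ProsB1 RNAi replicate 1 the values in ProsB1 RNAi were -0.66 (adjusted p 0.2) for LysC and -1.02 (adjusted p 0.119) for LysD, neither of them called. These 4 genes and LysP and LysS lie within the gene mwh, LysC overlaps LysD, and LysB to LysE are near-identical, so their counts are uncertain one by one. Summed over LysB to LysE, the level was 259, 304 and 466 CPM in ProsB1 RNAi, 416, 264 and 249 in ProsB5 RNAi, 0.796, 6.21 and 6.17 in Ter94 RNAi and 204, 325 and 409 in CG6272 RNAi, against 801, 591 and 583 in white RNAi and 829, 881 and 766 in GFP RNAi.

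LysP, the salivary gland lysozyme, did not share that fall. It had 170.2, 174 and 199 CPM in ProsB1 RNAi, 300.4, 281 and 296 in ProsB5 RNAi, 400.2, 351 and 349.6 in Ter94 RNAi and 334, 473 and 341 in CG6272 RNAi, against 261, 254 and 253 in white RNAi and 222, 218 and 208 in GFP RNAi. Its libraries did not overlap the controls in any of the 4 comparisons. LysP was lower in ProsB1 RNAi (-0.45 ± 0.06, adjusted p 0.000277) and rose in ProsB5 RNAi (0.25 ± 0.06, adjusted p 0.00731), Ter94 RNAi (0.41 ± 0.06, adjusted p 9.28e-05) and CG6272 RNAi (0.67 ± 0.12, adjusted p 0.00755). Ter94 RNAi replicate 1, with 0.312 CPM of LysD and 47.7 CPM of alphaTry, had the highest level of LysP in its group. LysX had 0.997, 0.921 and 1.08 CPM in ProsB1 RNAi, 2.42, 1.20 and 0.959 in ProsB5 RNAi, 0.0346, 0.193 and 0.0693 in Ter94 RNAi and 1.13, 0.748 and 1.72 in CG6272 RNAi, against 1.22, 1.22 and 1.23 in white RNAi and 0.0913, 0.160 and 0 in GFP RNAi. The knockdowns lay between or near the control lines, which differed from each other, and the called differences of LysX (1.55 ± 0.50, 2.17 ± 0.49, -1.88 ± 0.66 and 1.85 ± 0.45 in ProsB1, ProsB5, Ter94 and CG6272 RNAi) depend on which control line is used. Its call was lost under 10 of 20 alternative settings in ProsB1 RNAi and 7 of 19 in CG6272 RNAi, and in Ter94 RNAi it had -1.47 (adjusted p 0.104) without GFP RNAi replicate 2. LysS stayed at 0.274 CPM or less in every thorax library.

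mag encodes a lipase that is secreted into the gut and acts on dietary fat and sterol esters. It had 252, 74.8 and 161 CPM in ProsB1 RNAi, 48.5, 81.1 and 107 in ProsB5 RNAi, 64.3, 30.3 and 31.9 in Ter94 RNAi and 138, 102 and 46.5 in CG6272 RNAi, against 0.0608, 0.0314 and 0.126 in white RNAi and 12.6, 0.160 and 0.161 in GFP RNAi. All 12 knockdown libraries lay above all 6 controls, GFP RNAi replicate 1 included. On the log2 scale the fold changes of mag, which overlaps atk, were 8.08 ± 0.98, 7.04 ± 0.99, 5.97 ± 1.02 and 7.36 ± 1.17 in ProsB1, ProsB5, Ter94 and CG6272 RNAi (adjusted p 9.37e-05, 0.000213, 0.000271 and 0.00409), and 10.44, 9.38, 8.33 and 9.71 without GFP RNAi replicate 1. mex1 had 36.2, 28.5 and 38.5 CPM in ProsB1 RNAi, 51.5, 34.3 and 35.2 in ProsB5 RNAi, 4.64, 5.66 and 5.40 in Ter94 RNAi and 17.1, 14.8 and 31.99 in CG6272 RNAi, against 16.1, 17.8 and 19.6 in white RNAi and 14.2, 12.1 and 8.65 in GFP RNAi. It rose in ProsB1 RNAi (1.19 ± 0.16, adjusted p 0.000188) and ProsB5 RNAi (1.43 ± 0.16, adjusted p 3.9e-05), fell in Ter94 RNAi (-1.69 ± 0.19, adjusted p 8.76e-06) and was not called in CG6272 RNAi (0.52 ± 0.23, adjusted p 0.121).

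Read library by library, the abundant sum lay below every control throughout Ter94 RNAi. For each other knockdown the highest library lay within or above the control range, and the remaining libraries lay below every control. The control-absent sum lay above every control in all 12 knockdown libraries, in part by the choice of that class. The 11 control-absent members summed to 768, 201 and 506 CPM in ProsB1 RNAi, 259.9, 158 and 165 in ProsB5 RNAi, 114, 70.3 and 77.7 in Ter94 RNAi and 234, 211 and 90.8 in CG6272 RNAi, against 0.456, 0.439 and 0.818 in white RNAi and 26.1, 0.543 and 0.452 in GFP RNAi. The 19 abundant members summed to 8166, 6662 and 9729.6 CPM in ProsB1 RNAi, 11711, 6661 and 6374 in ProsB5 RNAi, 558, 2392 and 2512 in Ter94 RNAi and 4442, 6129 and 9914 in CG6272 RNAi, against 9713, 8541 and 8573 in white RNAi and 11087, 10353 and 10406 in GFP RNAi. Every knockdown library exceeded GFP RNAi replicate 1 in the control-absent sum, and that library held 3.40 to 37.1% of the sums of the 12 knockdown libraries.

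**Figure D3:**
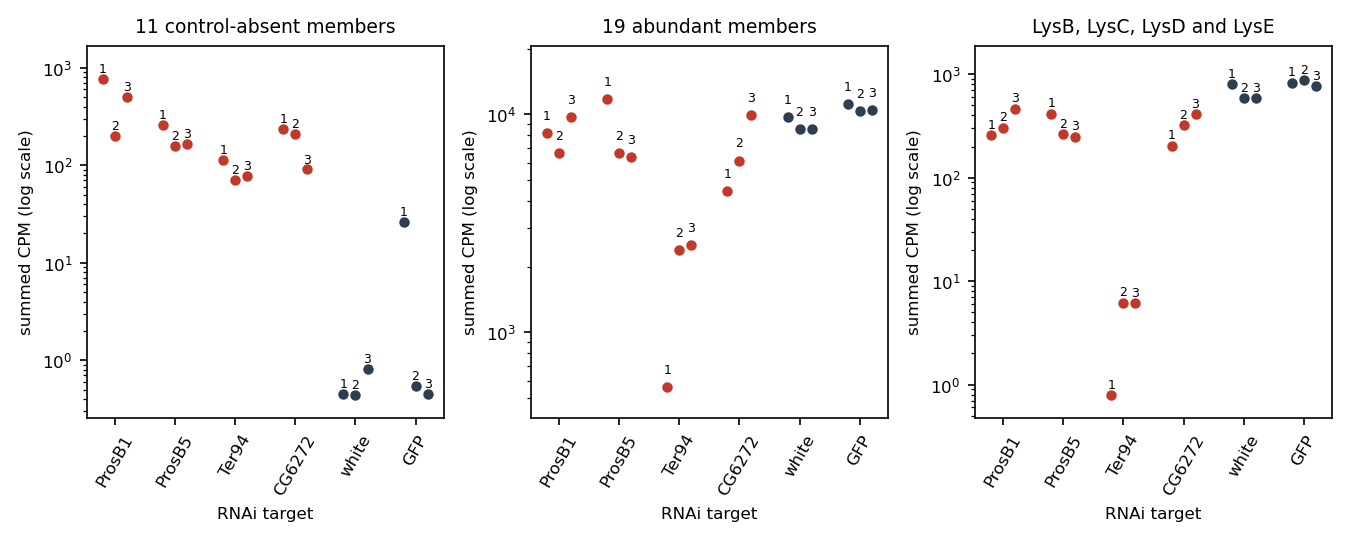
Summed CPM per library on a log scale for the 11 control-absent members, the 19 abundant members and LysB to LysE, with one point per library numbered by replicate, knockdowns in red and controls in dark blue. GFP RNAi replicate 1 stands alone among the controls in the left panel at 26.1 CPM, and Ter94 RNAi replicate 1 is lowest in the middle and right panels.

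Within groups the classes did not rank the libraries alike. Ter94 RNAi replicate 1 was the lowest of the 18 libraries in 17 of the 19 abundant members, and yet it exceeded replicates 2 and 3 in 9 of the 11 control-absent members. Among these 9, Ser12 rests on 1 read and Jon66Cii on 6 reads over the group. Jon65Ai and Jon66Ci went the other way. Of the members just outside the class limit thetaTry did so too, and mag, Jon99Fii and lambdaTry did not. In CG6272 RNAi, replicate 3 was the lowest of its group in 10 of the 11 control-absent members and the highest in 18 of the 19 abundant members. ProsB5 RNAi replicate 1 was the highest of its group in all 19 abundant members. Among the control-absent members it was the highest only in Jon25Biii, Jon65Ai, Jon65Aii, Ser8 and zetaTry. ProsB1 RNAi replicate 2 was the lowest of its group in 10 control-absent and 12 abundant members. In GFP RNAi replicate 1, 9 of the 11 control-absent members had their highest control level, 5 of them at 10 times or more of every other control, while its abundant sum was 11087 CPM, beside 10353 and 10406 CPM in the other GFP RNAi libraries. ProsB5 RNAi replicate 1 also held the highest accessory gland sum of its group and GFP RNAi replicate 1 of its own, and the part of that in the member levels was not tested.

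**Figure D4:**
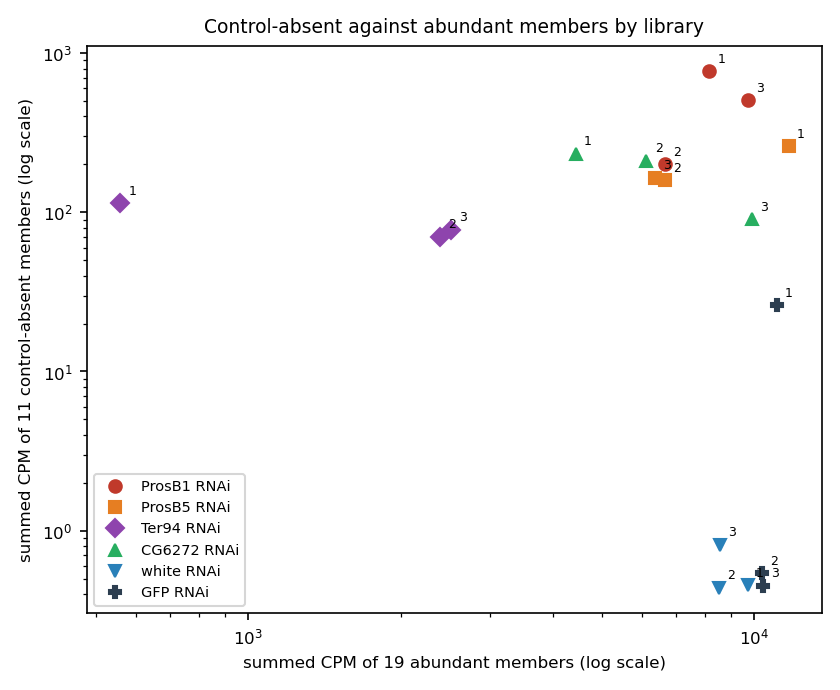
Summed CPM of the 11 control-absent members against that of the 19 abundant members in each thorax library, both on log scales, with a symbol per group and the replicate number beside each point. The 5 controls other than GFP RNAi replicate 1 lie at the lower right, the proteasome and CG6272 knockdowns above them, and the Ter94 RNAi libraries to the upper left.

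Because the abundant class used the controls, it was also drawn from one control line and read against the other. With the class drawn from GFP RNAi and the contrast against white RNAi alone, 3 of 20 abundant members were higher and 4 lower in ProsB1 RNAi, where 9.09% of all genes were called higher and 8.29% lower. In ProsB5 RNAi 3 were higher and 5 lower, against 13.3 and 10.4% of all genes. In Ter94 RNAi 1 was higher and 18 lower, against 27.5 and 27.6%, and in CG6272 RNAi 3 were higher and 7 lower, against 6.21 and 5.34%. With the class drawn from white RNAi and the contrast against GFP RNAi alone, 2 of 19 abundant members were higher and 5 lower in ProsB1 RNAi, against 11.7 and 9.94% of all genes. In ProsB5 RNAi 3 were higher and 5 lower, against 17.0 and 14.1%. In Ter94 RNAi 1 was higher and 18 lower, against 25.4 and 25.8%, and in CG6272 RNAi 2 were higher and 9 lower, against 10.1 and 7.99%.

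The knockdowns were also compared with each other, without any control library. Between the proteasome knockdowns LysP was the single member called, where 5.97% of all genes were (3.41% higher and 2.56% lower in ProsB5 RNAi). LysP had 300.4, 281 and 296 CPM in ProsB5 RNAi, against 170.2, 174 and 199 in ProsB1 RNAi, a log2 difference of 0.70 ± 0.07 (adjusted p 0.0002). For the other 36 tested members the difference did not pass the threshold, which does not show that they were equal: that of Jon25Biii was -1.68 ± 0.89 and that of zetaTry 0.97 ± 0.71. With the replicate number as a block in the model the count was again 1, and without ProsB5 RNAi replicate 1 it was 3.

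Ter94 RNAi differed from the proteasome knockdowns in most members. Set against the mean of ProsB1 and ProsB5 RNAi, 31 members were lower and 1, LysP, was higher, where 57.1% of all genes were called (27.4% higher and 29.6% lower). All 18 abundant members other than LysP were lower, with 7 of 10 tested control-absent members and 6 of 8 tested low members. The calls of Jon74E, Jon25Biii, Jon66Cii and betaTry were lost under 12, 11, 11 and 6 of 17 alternative settings. Those of Jon65Aii and Jon99Fii were lost under 4 of 17 each. The lowest adjusted p-values were those of LysB (-6.41 ± 0.37, adjusted p 4.97e-08), mex1 (-2.998 ± 0.20, adjusted p 1.23e-07), LysC (-6.62 ± 0.44, adjusted p 1.24e-07), Ser6 (-2.24 ± 0.15, adjusted p 1.49e-07) and LysD (-6.68 ± 0.48, adjusted p 2.53e-07). They were followed by kappaTry (-2.42 ± 0.23), LysP (0.51 ± 0.06), LysE (-3.35 ± 0.46), Jon99Ci (-3.64 ± 0.54) and Jon66Ci (-4.46 ± 0.74). Members that did not pass the threshold were Ser8, iotaTry, lambdaTry, mag and zetaTry. With Ter94 RNAi replicates 2 and 3 summed as 1 library, 25 members were lower and 1 higher.

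The control lines differed from each other in 5 members, where 12.9% of all genes were called (6.79% higher and 6.09% lower in white RNAi). LysX (3.82 ± 0.68, adjusted p 0.00328) and LysP (0.25 ± 0.07, adjusted p 0.0373) were higher in white than in GFP RNAi. LysE (-1.72 ± 0.35, adjusted p 0.00653), Ser6 (-0.60 ± 0.16, adjusted p 0.0273) and LysB (-0.84 ± 0.26, adjusted p 0.0492) were lower in white RNAi. No control-absent member was called. Jon25Biii had a value of -6.09 ± 2.06 (adjusted p 0.0717), with GFP RNAi replicate 1 its single control with more than 4 reads. Without that library 3 members were called, without white RNAi replicate 1 2, and by DESeq2 10.

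Other gut genes were read from lists, of which these counts and medians are a description. Beside the counts of this and the next paragraph, 11.6, 17.3, 29.7 and 13.3% of all genes were higher in ProsB1, ProsB5, Ter94 and CG6272 RNAi. The shares lower were 9.73, 13.8, 28.4 and 9.53%. Of 16 tested genes for other digestive enzymes and midgut sterol uptake, 10 were higher and 0 lower in ProsB1 RNAi, 9 and 0 in ProsB5 RNAi, 6 and 7 in Ter94 RNAi, and 10 and 6 in CG6272 RNAi. Their median log2 fold changes were 3.31, 3.08, -0.54 and 2.57, and the median over all genes tested lay between -0.0021 and 0.021 in these comparisons. By adjusted p in ProsB1 RNAi the first were Amyrel, an amylase-related gene (7.40 ± 0.57, adjusted p 5.11e-06), Npc1b, needed for sterol uptake in the midgut (4.87 ± 0.50, adjusted p 2.49e-05), and CG18585 (7.57 ± 0.87, adjusted p 6.08e-05). Of 10 maltase genes 7 were higher and 1 lower in ProsB1 RNAi, 8 and 1 in ProsB5 RNAi, 5 and 4 in Ter94 RNAi, and 6 and 1 in CG6272 RNAi, with medians of 1.47, 1.96, 0.37 and 0.96. Mal-B1 rose (1.47 ± 0.10 in ProsB1 RNAi, adjusted p 2.25e-06), as did Mal-A3 (6.35 ± 0.68, adjusted p 3.48e-05), and Mal-A5 fell (-0.54 ± 0.05, adjusted p 2.09e-05).

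Of 9 enterocyte junction, brush border and peritrophic genes, 6 were higher and 0 lower in ProsB1 RNAi, 6 and 1 in ProsB5 RNAi, 1 and 5 in Ter94 RNAi, and 4 and 2 in CG6272 RNAi, with medians of 1.09, 1.03, -0.92 and 0.48. The summed level of the same 9 genes was lower in the knockdowns, with 2049 to 3735 CPM in ProsB1 RNAi, 2285 to 4397 in ProsB5 RNAi, 215 to 1460.2 in Ter94 RNAi and 1037 to 2608 in CG6272 RNAi, against 5999.8 to 8082 CPM in the controls. Except in Ter94 RNAi replicate 1, most of that sum was Muc68D, a mucin gene named here after its values were seen. Muc68D had 2417, 1514 and 2995 CPM in ProsB1 RNAi, 3565, 1671 and 2166 in ProsB5 RNAi, 8.34, 1229.8 and 1214 in Ter94 RNAi and 1336, 784 and 2056 in CG6272 RNAi, against 7072, 7348 and 7580.3 in white RNAi and 5679, 5873 and 5627 in GFP RNAi. It was called lower in Ter94 RNAi (-3.22 ± 0.97, adjusted p 0.0123) and CG6272 RNAi (-2.27 ± 0.26, adjusted p 0.000941). It was not called in ProsB1 RNAi (-1.55 ± 0.88, adjusted p 0.24) and ProsB5 RNAi (-1.45 ± 0.87, adjusted p 0.244), although no knockdown library reached the controls. As for Jon74E, the ProsB1 and ProsB5 RNAi values come from the fit that shares its spread with the Ter94 RNAi libraries. The part of that sharing in the values of Muc68D was not tested. In the same list Myo61F, a brush border myosin, was 1.13 ± 0.15 in ProsB1 RNAi (adjusted p 0.000168) and -1.09 ± 0.16 in Ter94 RNAi (adjusted p 9.73e-05). Of 9 gut transcription factor genes, 5 were higher in ProsB1 RNAi, 4 in ProsB5 RNAi, 0 in Ter94 RNAi and 2 in CG6272 RNAi, and 0, 0, 5 and 1 were lower. Their medians were 0.78, 0.49, -0.32 and 0.11. The first by adjusted p in ProsB1 RNAi were Sox21a (1.65 ± 0.21, adjusted p 0.000146) and esg (1.16 ± 0.16, adjusted p 0.000271), both known from intestinal progenitors, and lab (2.14 ± 0.35, adjusted p 0.000764), known from copper cells. Of 6 genes for gut amidases and gut-high peptides, 4 were higher and 0 lower in ProsB1 RNAi, 5 and 1 in ProsB5 RNAi, 3 and 2 in Ter94 RNAi, and 3 and 0 in CG6272 RNAi, with medians of 1.62, 1.50, 1.07 and 0.75. PGRP-SC1a (7.48 ± 0.63), PGRP-SC1b (9.40 ± 0.66) and PGRP-SC2 (2.33 ± 0.26), amidases that cut peptidoglycan, were higher in ProsB1 RNAi (adjusted p 7.23e-06, 7.23e-06 and 4.49e-05). Of 5 enteroendocrine peptide genes, 2, 3, 4 and 3 were higher in ProsB1, ProsB5, Ter94 and CG6272 RNAi and 0, 0, 1 and 0 lower, with medians of 0.37, 0.39, 0.57 and 0.53.

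The 6 gut markers that are not members were Tsp2A, Myo31DF, GATAe, Npc1b, Bace and Vha100-4. All of them are in the lists above, so they are no separate result. The enterocyte list, which holds some of them, had a sum below the controls instead. The summed level of the 6 markers was 549, 679 and 822 CPM in ProsB1 RNAi, 764, 603 and 574 in ProsB5 RNAi, 131, 186 and 195 in Ter94 RNAi and 319, 418 and 691 in CG6272 RNAi, against 161, 169 and 245 in white RNAi and 226, 189.6 and 173 in GFP RNAi. Of these 6 genes 5 were called higher in ProsB1 RNAi, 5 in ProsB5 RNAi, 2 in Ter94 RNAi and 4 in CG6272 RNAi, and 2 were called lower in Ter94 RNAi. The shares of all genes called higher were 11.6, 17.3, 29.7 and 13.3% in the same order, and 28.4% were lower in Ter94 RNAi. The ProsB1, ProsB5 and CG6272 RNAi libraries all lay above the highest control in this sum, and the Ter94 RNAi libraries lay within or below the range of the controls. The sum of the abundant members lay above the highest control in ProsB5 RNAi replicate 1 alone. The control-absent sum lay above every control in Ter94 RNAi, in part by the choice of that class, and the marker sum did not. Whether the amount of gut in a dissected thorax plays a part in the member levels was not tested. Muscle markers, 10 genes, summed to 13994 to 17466 CPM in the ProsB1, ProsB5 and CG6272 RNAi libraries and 22436 to 22613 CPM in Ter94 RNAi, against 16456 to 21766 CPM in the controls.

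In heads, which hold no midgut, 36 of the 39 members had 1 CPM or less in every library. LysP was the single member above 1 CPM in all 6, with 3.77, 7.72 and 2.53 CPM in Amyrel heads, against 5.19, 15.8 and 7.77 in control heads.

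The genes outside the set whose levels followed the control-absent sum most closely over the 18 thorax libraries were CG10472, CG18585, CG5804, CG7916 and CG33306. Pearson's r of log2(CPM + 0.5) was 0.996 for CG10472 and 0.993 for CG33306, with Spearman's rho of 0.9505 and 0.948, among 10176 genes ranked. CG42714, CG8952, CG34236, CG3819 and CG12374 followed the abundant sum most closely, with r of 0.9885 for CG42714 and 0.9735 for CG12374 and rho of 0.9525 and 0.845. These libraries fall into groups that differ in both sums, so the correlations are a description only.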

How the data were processed

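RNA from thoraces and heads was sequenced with a stranded mRNA kit on one platform, per the labels' protocols. The submitters' processing notes name STAR and the genome build BDGP5. The sources used here do not name the counting program, the annotation or the strand setting. The deposited files hold raw read counts per gene, 1 file per library, as the authors made them, and their 5 summary lines (19.4 to 31.2% of a thorax library) were left out. The 39 members and the gene lists were chosen with earlier results of these data known.

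CPM are counts scaled to 1000000 reads in genes, with no other scaling. Tests used edgeR 4.0.16 in R 4.3.3 (filterByExpr with a minimum count of 10, TMM, quasi-likelihood test, Benjamini-Hochberg adjustment over 11262 genes) in 1 fit of 15 libraries. CG6272 RNAi was fitted apart with the 6 controls (10784 genes). The scripts were tested on simulated counts. The SE was taken as the size of the log2 fold change over the root of its F statistic. Members with a mean of at least 1 CPM in a thorax group and called in a comparison with controls, and mag and mex1, are given library by library, the others by range or count. From comparisons between knockdowns up to 10 called members, and from the other lists up to 3 called genes by adjusted p, are named. Exon lengths, gene order and overlaps come from an Ensembl BDGP6 annotation. By the correlations of same-numbered deviations, replicate numbers paired ProsB5 with ProsB1 RNAi (0.463, 0.37 and 0.147), ProsB1 with GFP RNAi (0.434, 0.365 and 0.128) and ProsB5 with GFP RNAi (0.764, 0.532 and 0.574), and no other groups. Alternatives were DESeq2 1.42.0, other scalings, no filter, a replicate block, a single control line, and leaving out libraries. P-values measure the spread between these libraries.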

Additional observations from a re-analysis of the deposited data

Results flagged for a closer look

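In the 6 controls, GFP RNAi replicate 1 stood far above the other 5 libraries in 13 of the 36 members screened. In each of the 13 the gap to the next control, as a share of the whole range, passed Dixon's critical value for 6 samples. For normally distributed values chance marks about 1 in 20 groups in such a screen. That rate need not hold for counts this low or for members that vary together. Its levels were 15.47 CPM for Jon25Biii, 12.57 for mag, 8.708 for lambdaTry, 7.368 for Jon99Fii, 6.972 for thetaTry, 3.897 for Jon99Fi and 2.527 for iotaTry. Lower levels stood apart in the same way for Ser8 (1.461 CPM), Jon65Aii (0.8525), zetaTry (0.7612), Jon44E (0.4263), Jon66Ci (0.3654) and Jon65Ai (0.3349). The same library had 118 CPM over 8 accessory gland genes, and the part of other organs in its levels was not tested.

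Between ProsB5 and ProsB1 RNAi the effect against the shared controls differed in 1 member, LysP, by 0.7002 on the log2 scale. Between Ter94 RNAi and the mean of the proteasome knockdowns it differed in 32 members. The log2 differences with the lowest adjusted p-values in edgeR's quasi-likelihood test were -6.413 for LysB, -2.998 for mex1, -6.616 for LysC, -2.236 for Ser6, -6.675 for LysD, -2.42 for kappaTry, 0.5064 for LysP, -3.348 for LysE, -3.636 for Jon99Ci and -4.464 for Jon66Ci.

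Heads enter no comparison above. Members were listed there if all Amyrel libraries lay above all control libraries and 1 or more reached 1 CPM. The lack of overlap is thus the rule of choice. Jon74E was the single member listed, with a mean of 1.658 CPM in Amyrel heads (1.998, 1.35 and 1.63 CPM), against 0.330, 0.413 and 0.287 CPM in control heads. That difference was not tested.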

How the results depend on the processing

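The number of members called stayed within 1.5 times of the reported one under most settings. Without the libraries over 5 CPM of Acp36DE it was 17 in ProsB5 RNAi, 17 in CG6272 RNAi, 1 for white against GFP RNAi and 3 for ProsB5 against ProsB1 RNAi, and without the control libraries over 100 CPM of ninaE it was 16 in CG6272 RNAi. For white against GFP RNAi it was 10 with DESeq2 and 2 with a required change of 1 or more on the log2 scale, a bound that left 0 members for ProsB5 against ProsB1 RNAi. The causes were not tested. Leaving out 1 library at a time gave 21 to 26 in ProsB1 RNAi, 24 to 27 in ProsB5 RNAi, 30 to 36 in Ter94 RNAi, 25 to 30 in CG6272 RNAi, 2 to 7 for white against GFP RNAi, 1 to 3 for ProsB5 against ProsB1 RNAi and 26 to 32 for Ter94 against the proteasome knockdowns.

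With control-absent members defined by a median of 0 reads, Jon65Ai, Jon66Cii and Ser12 are left. Of these, 2 were called higher in ProsB1, ProsB5 and Ter94 RNAi and 1 in CG6272 RNAi. All genes were called higher in 11.6, 17.3, 29.7 and 13.3% of cases in ProsB1, ProsB5, Ter94 and CG6272 RNAi. Such members pass the filter on low counts through the libraries in which they are high, so the counts are a description. With abundant members drawn from GFP RNAi and set against white RNAi alone, 4 were lower in ProsB1 RNAi. LysX reversed with the control line, at -0.36 in ProsB1 RNAi and -0.062 in CG6272 RNAi against white RNAi alone and 0.0305 in Ter94 RNAi against GFP RNAi alone. Over the 156 single member results called in the main fit, 2678 of 2952 alternative values kept direction and call. A further 271 kept direction and lost the call, and 3 reversed. Member results not called in the main fit did not enter, so calls gained under an alternative are not counted.

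With the replicate number as a block, the counts were 25 in ProsB1 RNAi, 27 in ProsB5 RNAi, 35 in Ter94 RNAi, 27 in CG6272 RNAi, 4 for white against GFP RNAi, 1 for ProsB5 against ProsB1 RNAi and 33 for Ter94 against the proteasome knockdowns. The block took away the calls of LysC and gammaTry in ProsB1 RNAi, Jon66Cii in Ter94 RNAi (adjusted p 0.0584), Jon25Bi in CG6272 RNAi (0.0576), LysB for white against GFP RNAi (0.0591) and Jon74E for Ter94 against the proteasome knockdowns (0.0501). The numbers paired GFP, ProsB1 and ProsB5 RNAi with one another, and for ProsB5 against ProsB1 RNAi the count did not move. White RNAi did not join them (0.188, -0.345 and 0.502 with GFP RNAi), so the comparisons with both control lines are paired in part only.

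Reads in genes limit the control-absent members, since 1 read is about 0.03 CPM in a control library, and GFP RNAi replicate 1 moves their fold changes. Copies that share reads limit LysB to LysE, gammaTry and deltaTry, Jon25Bi and Jon25Bii, and Jon99Cii and Jon99Ciii.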
